A study of Bubalus bubalis with 9 samples.

Results

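Granulosa cells line the ovarian follicle, respond to follicle-stimulating hormone, turn androgens into estrogens and secrete inhibins. Most follicles never ovulate and are lost by atresia, in which granulosa cells die and phagocytic cells clear the remains. RNA of granulosa cells from late atretic follicles (3 samples) was compared here with RNA of granulosa cells from healthy follicles (3 samples) of the ovary of Chinese buffalo, Bubalus bubalis. The series also held 3 samples from early atretic follicles, 9 samples in all. No sample carried a treatment or genetic change that the labels name. The labels give neither the age of the animals, the size of the follicles, the criteria for the stages of atresia, nor whether each sample was a different animal, and the p-values therefore cover a spread between samples that may be technical. The comparison takes in every gene of the authors' table for this pair of groups: of 21253 rows, 452 repeated another row exactly, which left 20801 genes.

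Each gene has 1 mean normalized read count per group and no value per sample, so ranges over samples and overlap of the groups could not be given. A p-value stood beside 17366 genes. A further 76 had a fold change without one, and 3359 were listed at 0 in both groups. The means summed to 13141820 in late atretic and 14082460 in healthy follicles. A single read was worth 0.30 to 0.34 of a normalized count in late atretic and 0.31 to 0.37 in healthy follicles, so the libraries had been scaled by factors of 0.98 to 1.11 in late atretic and 0.90 to 1.08 in healthy follicles. More genes were detected in late atretic follicles: 13212 had a mean of 10 or more in late atretic and 12561 in healthy follicles, and 10064 against 9675 had a mean of 100 or more. Errors, written after ±, are standard errors worked back from the deposited fold change and p-value of each gene, as if a two-sided normal test had been used. It had a median of 0.29 log2 units over the 9906 tested genes with a mean over both groups of at least 100, and it was far wider below that level. Called means an adjusted p below 0.05 in the authors' deposited table.

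The labelled cell type was checked against 13 granulosa markers, and all 13 were above 0 in both groups. INHA, the alpha subunit of inhibin, had 166575 in late atretic and 312046 in healthy follicles in the authors' deposited table. FSHR, the receptor for follicle-stimulating hormone, had 4087 in late atretic and 5561 in healthy follicles there, and FOXL2, a transcription factor of granulosa cells, had 398 in late atretic and 731 in healthy follicles. CYP19A1, the aromatase, is held as LOC102392019 in the authors' deposited table and had 16570.4 in late atretic and 24349 in healthy follicles. Of the 13 markers, 12 had a log2 fold change below 0, 0 were called and 3 had an unadjusted p below 0.05, with a median of -0.88. In bulk RNA, fewer cells of a type and less RNA per cell cannot be told apart.

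Change between the stages was lopsided. Of the tested genes 761 (4.38%) were called, 692 of them (3.98%) higher and 69 (0.397%) lower in late atretic follicles, so 90.9% of calls were higher. At an unadjusted p below 0.05 the same direction led less strongly, with 1598 genes (9.2%) higher and 514 (2.96%) lower. The median log2 fold change of all tested genes was 0.03. With both columns scaled to equal totals, every fold change moves up by 0.10 log2 units, and 817 genes were called higher and 43 lower. The called higher genes were scarce transcripts with large changes: their median level over both groups was 112 and their median log2 fold change 2.74. The called lower genes were more abundant and moved less, with a median level of 685 and a median log2 fold change of -1.34.

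**Figure D1:**
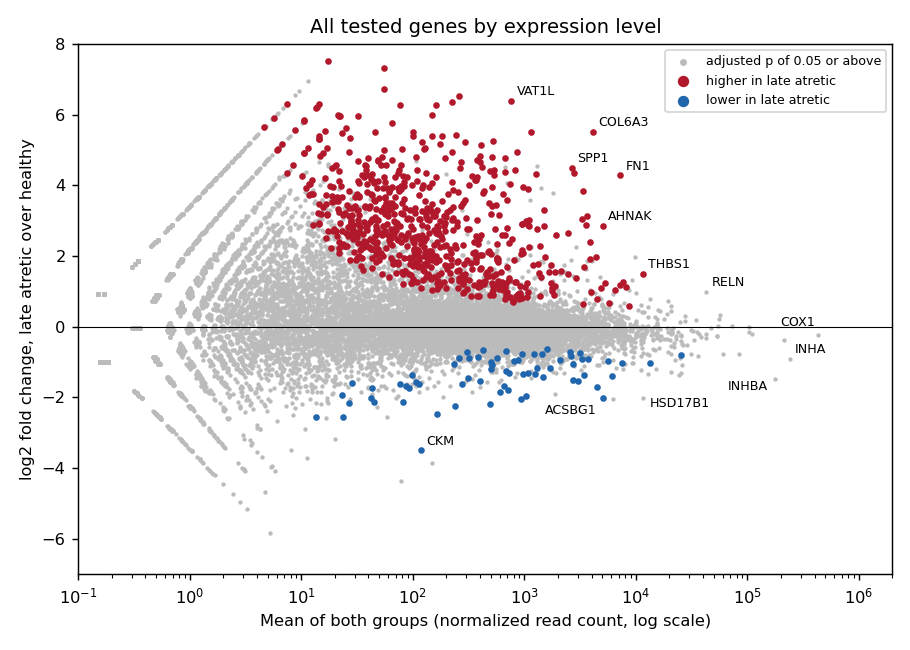
Log2 fold change (late atretic over healthy) against the mean normalized read count of both groups (log scale) for all tested genes. Called higher genes (692, red) fill the range between 10 and 10000, while called lower genes (69, blue) are few, and the most abundant genes below the zero line, such as INHBA and INHA, are not called.

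The share of genes called depended on the level. Below a mean of 1 the count of called genes was 0 of 1850, with 0 higher and 0 lower, although 511 of these had a log2 fold change of 1 or more. Between 10 and 100, 314 of 3121 genes were called higher and 13 lower. Between 100 and 1000 it was 309 and 30 of 7191, and between 1000 and 10000 it was 59 and 24 of 2570. Only 145 genes had a mean of 10000 or above, and of these THBS1 was called higher, with TRIB2 among those called lower. The share of calls that were higher was thus 96.0% between 10 and 100, 91.2% between 100 and 1000, 71.1% between 1000 and 10000 and 33.3% above.

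A smaller share of the genes past a log2 fold change of 1 was called downwards than upwards, and this difference was not tested. Of the genes between 100 and 1000 with a log2 fold change of 1 or more, 289 of 455 (63.5%) were called, against 19 of 87 (21.8%) with one of -1 or less. Between 1000 and 10000 the counts were 50 of 89 (56.2%) and 14 of 47 (29.8%). The median implied error of these genes was much the same in both directions, 0.53 upwards and 0.57 downwards between 100 and 1000. In that stratum the called higher genes had a median log2 fold change of 2.19 and the called lower genes one of -1.28. Called genes are selected by size over error, so these medians do not describe all genes past 1 or -1. At 10000 and above, 10 genes had a log2 fold change of -1 or less, and 1 of them was called.

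**Figure D2:**
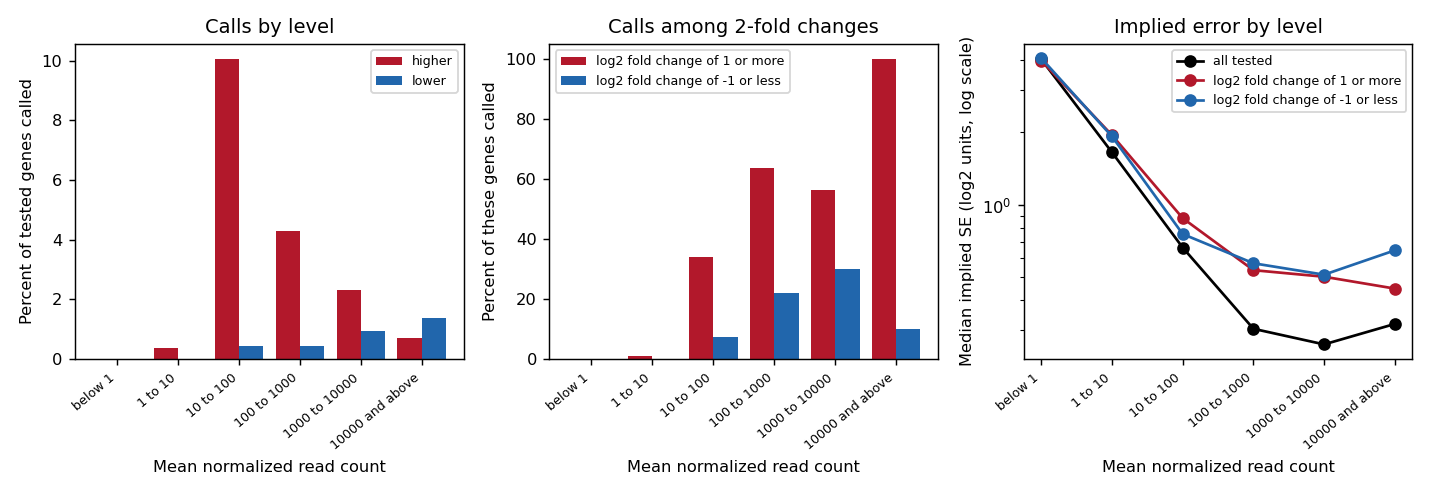
Left, percent of tested genes called higher and lower in each stratum of mean normalized read count; middle, percent called among genes with a log2 fold change of 1 or more and of -1 or less; right, median implied standard error in log2 units (log scale). Calls peak between 10 and 100 (10.5% of tested genes), and at each level from 10 to 10000 a larger share was called of genes at or above 1 than of genes at or below -1.

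The increases with the smallest adjusted p were large, in genes scarce in healthy follicles. VAT1L had the smallest adjusted p, at 1512 in late atretic and 17.9 in healthy follicles (log2 fold change 6.40 ± 0.42, adjusted p = 7.2e-48) in the authors' deposited table. CDH13, the membrane-anchored T-cadherin, had 338 in late atretic and 9.47 in healthy follicles (log2 fold change 5.16 ± 0.42, adjusted p = 1.2e-31) in the authors' deposited table. DPYSL3, known for its part in the cytoskeleton of growing neurons, had 1015 in late atretic and 51.5 in healthy follicles (log2 fold change 4.30 ± 0.35, adjusted p = 1.9e-30) in the authors' deposited table. All 3 stood near or below 50 in healthy follicles, so the fold changes rest on a low but measured level. Among scarcer genes the authors' deposited table put TCIM at 148 in late atretic and 9.38 in healthy follicles (log2 fold change 3.97 ± 0.49, adjusted p = 3.9e-13). ADAMTS12, a secreted metalloprotease, had 155 in late atretic and 8.09 in healthy follicles (log2 fold change 4.26 ± 0.54, adjusted p = 2.1e-12) there, by the authors' deposited table. ALDH1A3, which makes retinoic acid, had 107 in late atretic and 3.29 in healthy follicles (log2 fold change 5.0 ± 0.64, adjusted p = 4.4e-12) in the authors' deposited table.

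Among genes that reached at least 1000 in late atretic follicles, the largest called increases were also listed. COL6A3, a chain of type VI collagen, had 8081 in late atretic and 176 in healthy follicles (log2 fold change 5.52 ± 0.48, adjusted p = 5.8e-27) in the authors' deposited table. TGFBI, a matrix protein that binds integrins, had 2223 in late atretic and 48.8 in healthy follicles (log2 fold change 5.51 ± 0.66, adjusted p = 4.4e-14) in the authors' deposited table. CD109, a surface protein that binds TGF-beta, had 1650.5 in late atretic and 53.0 in healthy follicles (log2 fold change 4.96 ± 0.56, adjusted p = 5.5e-16) in the authors' deposited table. FLNC, the actin crosslinker filamin C, had 1286 in late atretic and 46.5 in healthy follicles (log2 fold change 4.79 ± 0.55, adjusted p = 3.8e-15) in the authors' deposited table. SPP1, the secreted phosphoprotein osteopontin, had 5082 in late atretic and 225 in healthy follicles (log2 fold change 4.50 ± 1.15, adjusted p = 0.0046) in the authors' deposited table. The lysosomal protease CTSH had 1024 in late atretic and 47.4 in healthy follicles (log2 fold change 4.43 ± 0.78, adjusted p = 2.8e-06), and its relative CTSS 1279 in late atretic and 62.0 in healthy follicles (log2 fold change 4.37 ± 1.21, adjusted p = 0.011), in the authors' deposited table. Both cathepsins thus passed the test with errors of 0.78 and 1.21, wider than the 0.48 of COL6A3.

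Decreases that passed the test were smaller. GALNT18, of the family that starts O-linked glycans, had 263 in late atretic and 939 in healthy follicles (log2 fold change -1.83 ± 0.29, adjusted p = 7.3e-08) in the authors' deposited table. CKM, the muscle creatine kinase, had 19 in late atretic and 216 in healthy follicles (log2 fold change -3.50 ± 0.63, adjusted p = 4.2e-06) in the authors' deposited table, the steepest fall among the called genes. ACSBG1, which activates long-chain fatty acids, had 2031 in late atretic and 8209.8 in healthy follicles (log2 fold change -2.02 ± 0.41, adjusted p = 8e-05) in the authors' deposited table. ESR2, the estrogen receptor beta, had 317 in late atretic and 1101 in healthy follicles (log2 fold change -1.80 ± 0.46, adjusted p = 0.0044) in the authors' deposited table. NOS2, the inducible nitric oxide synthase, had 3318 in late atretic and 8789 in healthy follicles (log2 fold change -1.41 ± 0.37, adjusted p = 0.0059) by the authors' deposited table. CHST8, which sulfates the glycans of glycoprotein hormones, had 2110.4 in late atretic and 6837 in healthy follicles (log2 fold change -1.70 ± 0.46, adjusted p = 0.0096) in the authors' deposited table. ANKRD44, WFDC1, FZD8 (a Wnt receptor), DYSF (dysferlin, of membrane repair), LRCH4 and SPEG were called lower too, with log2 fold changes of -2.06 to -1.42 in the authors' deposited table, and WFDC1 and LRCH4 lost their call at equal totals. In the strata of low level, TMEM163 had 6.85 in late atretic and 40.6 in healthy follicles (log2 fold change -2.57 ± 0.60, adjusted p = 0.0012), PLA1A 16.9 in late atretic and 68 in healthy follicles (log2 fold change -2.01 ± 0.54, adjusted p = 0.009) and MEGF6 37.6 in late atretic and 117 in healthy follicles (log2 fold change -1.63 ± 0.45, adjusted p = 0.012) in the authors' deposited table. Of the genes at 10000 and above that fell, TRIB2, a pseudokinase, had 8868 in late atretic and 17938 in healthy follicles (log2 fold change -1.02 ± 0.30, adjusted p = 0.02) in the authors' deposited table.

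Gains and losses were also counted in reads rather than in genes. Gains in mean count in late atretic over healthy follicles summed to 1247231 over 9331 genes, and losses to -2187873 over 8106 genes. The excess of loss is the difference between the column totals, and scaling both to equal totals removes it by construction. Losses were concentrated: 50% of the summed loss lay in 80 genes and 50% of the summed gain in 261. The first 3 genes held 17.6% of the loss and 4.37% of the gain, and the first 15 held 30.7% and 12.2%. The called higher genes carried 27.2% of the gain, but the called lower genes carried 4.13% of the loss. The 692 called higher genes together held 3.57% of the late atretic and 0.918% of the healthy total, and the 69 called lower genes 0.604% of the late atretic and 1.21% of the healthy total.

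The 15 genes that lost most counts were, in order, INHBA, INHA, COX1, SERPINE2, VCAN, LAPTM4B, JAK3, INHBB, HIF1A, FST, STRA6, GREB1, CYTB, OBSL1 and HSD17B1. Of these 0 were called higher and 0 lower, 5 had an unadjusted p below 0.05, and their implied errors ran from 0.31 to 0.78 with a median of 0.46. They held 8.97% of the late atretic and 13.1% of the healthy total. INHBA, the beta A subunit shared by inhibin and activin, had 94269.9 in late atretic and 262049 in healthy follicles (log2 fold change -1.48 ± 0.78, adjusted p = 0.45) in the authors' deposited table. INHA had 166575 in late atretic and 312046 in healthy follicles (log2 fold change -0.91 ± 0.58, adjusted p = 0.63) and INHBB, the beta B subunit, 13628 in late atretic and 34897 in healthy follicles (log2 fold change -1.36 ± 0.65, adjusted p = 0.34) in the authors' deposited table. Together the 3 subunits held 2.09% of the late atretic and 4.32% of the healthy total. FST, follistatin, which binds activin, had 16648 in late atretic and 34958 in healthy follicles (log2 fold change -1.07 ± 0.65, adjusted p = 0.59) by the authors' deposited table.

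Of the other genes that lost most counts, 0 were called. HSD17B1, which turns estrone into estradiol, had 4569.8 in late atretic and 18591 in healthy follicles (log2 fold change -2.02 ± 0.67, adjusted p = 0.054), just outside the threshold in the authors' deposited table. STRA6, the receptor for retinol uptake, had 11988 in late atretic and 28895 in healthy follicles (log2 fold change -1.27 ± 0.42, adjusted p = 0.058) in the authors' deposited table, and GREB1, a gene known to respond to estrogen, 23019 in late atretic and 39089 in healthy follicles (log2 fold change -0.76 ± 0.38, adjusted p = 0.39). HIF1A, a subunit of the hypoxia-inducible factor, had 26032 in late atretic and 46369 in healthy follicles (log2 fold change -0.83 ± 0.31, adjusted p = 0.13) in the authors' deposited table. The proteoglycan versican (VCAN) had 61494 in late atretic and 105015 in healthy follicles (log2 fold change -0.77 ± 0.46, adjusted p = 0.56) and the protease inhibitor SERPINE2 185106 in late atretic and 238463 in healthy follicles (log2 fold change -0.37 ± 0.44, adjusted p = 0.95) in the authors' deposited table. JAK3, a tyrosine kinase of cytokine receptors, had 14602 in late atretic and 36488 in healthy follicles (log2 fold change -1.32 ± 0.69, adjusted p = 0.44) in the authors' deposited table. All of these fold changes were below 0, and none passed the adjusted threshold.

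The 15 genes that gained most counts were RELN, FN1, VIM, TIMP1, THBS1, FTH1, ND5, COL6A3, ATP6, CTSB, AHNAK, PSAP, TMSB10, SAT1 and LRP1. Of these FN1, THBS1, COL6A3, AHNAK and TMSB10 were called, and the 15 held 2.81% of the late atretic and 1.54% of the healthy total. FN1, the matrix protein fibronectin, had 13824 in late atretic and 705 in healthy follicles (log2 fold change 4.29 ± 0.34, adjusted p = 8.4e-32) in the authors' deposited table. AHNAK, a giant scaffold protein under the membrane, had 8845 in late atretic and 1225 in healthy follicles (log2 fold change 2.85 ± 0.26, adjusted p = 2.7e-25) in the authors' deposited table. THBS1, thrombospondin 1, had 17049 in late atretic and 6033 in healthy follicles (log2 fold change 1.5 ± 0.45, adjusted p = 0.023) and TMSB10, which binds actin monomers, 10934 in late atretic and 4529.5 in healthy follicles (log2 fold change 1.27 ± 0.38, adjusted p = 0.027) in the authors' deposited table. The gene with the largest gain, RELN, which encodes the secreted glycoprotein reelin, was not called, at 56971 in late atretic and 28628 in healthy follicles (log2 fold change 0.99 ± 0.68, adjusted p = 0.69) in the authors' deposited table. TIMP1, an inhibitor of matrix metalloproteases, had 15769 in late atretic and 3999.8 in healthy follicles (log2 fold change 1.98 ± 0.76, adjusted p = 0.14) in the authors' deposited table, and the lysosomal protease CTSB 13075 in late atretic and 5208 in healthy follicles (log2 fold change 1.33 ± 0.53, adjusted p = 0.17). FTH1, the heavy chain of the iron store ferritin, had 24136 in late atretic and 14658 in healthy follicles (log2 fold change 0.72 ± 0.32, adjusted p = 0.26) in the authors' deposited table. PSAP, the precursor of the saposins that help lysosomal enzymes act, had 16890.3 in late atretic and 9718 in healthy follicles (log2 fold change 0.80 ± 0.38, adjusted p = 0.34) there, by the authors' deposited table.

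**Figure D3:**
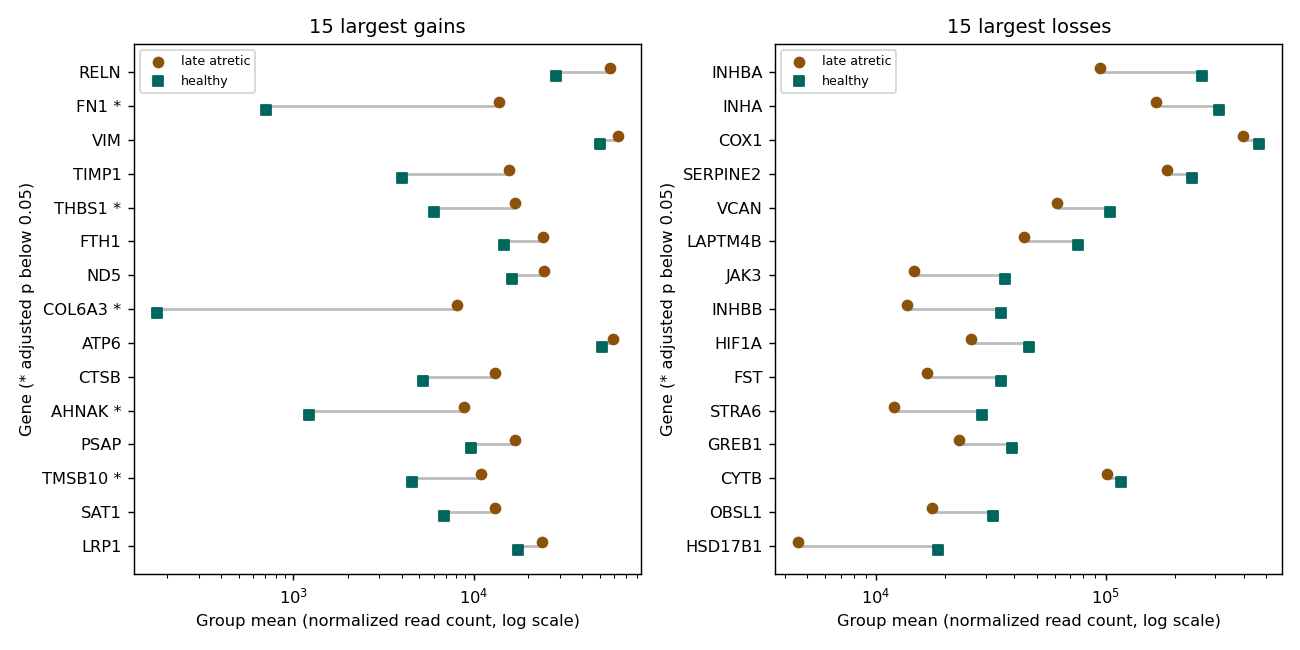
Mean normalized read count (log scale) in late atretic (circles) and healthy (squares) follicles for the 15 genes with the largest gain and the 15 with the largest loss; an asterisk marks an adjusted p below 0.05. Of the gaining genes 5 carry an asterisk, of the losing genes 0.

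The late atretic samples were also compared with the early atretic ones in the authors' deposited late against early table, which shares the late atretic samples with the comparison above. In it 19 of 17552 tested genes (0.108%) were called, 3 higher (0.0171%) and 16 lower (0.0912%) in late than in early atretic follicles. Among the 15 losing genes, 13 had a log2 fold change above 0 for late over early, 0 were called and the smallest adjusted p was 0.98. In early against healthy follicles, where 12.9% of all tested genes were called, 11 of these 15 were called, and so were 9 of the 15 gaining genes. That comparison shares the healthy samples by which both lists were chosen. For INHA the authors' deposited tables gave 1.13 ± 0.68 for late over early (adjusted p = 1) and -2.03 ± 0.45 for early over healthy (adjusted p = 0.00022). For SERPINE2 the authors' deposited tables gave 0.85 ± 0.50 for late over early (adjusted p = 1) and -1.20 ± 0.30 for early over healthy (adjusted p = 0.0014). Among the 15 gaining genes, 10 were above 0 for late over early, 0 were called and the smallest adjusted p was 0.18, that of COL6A3 at 1.80 ± 0.53 in the authors' deposited late against early table. Between late and early atretic follicles, none of these genes passed the test.

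Transcripts were spread more evenly in late atretic follicles. The 10 most abundant genes held 10.2% of the late atretic and 13.2% of the healthy total, the 100 most abundant 25.4% and 29.7%, and the 1000 most abundant 56.5% and 60.2%. It took 683 genes to reach 50% of the total in late atretic and 524 in healthy follicles. The lists themselves changed little: 9 of the 10 most abundant genes, 84 of the 100 and 866 of the 1000 were the same in both groups. The 10 of late atretic follicles were COX1, SERPINE2, INHA, EEF1A1, CYTB, COX3, INHBA, ACTG1, VIM and VCAN. EEF1A1, the elongation factor that brings transfer RNA to the ribosome, had 102595 in late atretic and 102306 in healthy follicles (log2 fold change 0.00 ± 0.19, adjusted p = 1) in the authors' deposited table. These are shares of reads, which are not scaled for gene length. With 1 value per group, a difference in concentration has no error and was not tested.

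Families were read from gene symbols: 97 families in 12 themes took in 3384 genes, and 91 families had 10 or more tested members. In these 91, over 20% of members were called higher in 10 families, against 3.98% of all tested genes. A lower member was found in 12, and 32 had 0 called members. Family medians of the log2 fold change were above 0 in 61 and below 0 in 30. Of the 10, S100 proteins (7 of 16), Toll-like receptors (4 of 10), annexins (4 of 11), cathepsins (4 of 13) and tropomyosins with calponins and transgelins (3 of 10) had 30% or more of members called. The others were integrins (7 of 25), metalloproteases and their inhibitors (5 of 20), ligands and receptors of the VEGF and PDGF families (3 of 13), collagens (9 of 42) and ADAMTS proteases (5 of 24). In the 59 families with a call, the most abundant member was itself called in 2, ANXA2 among annexins and S100A11 among S100 proteins. Of all tested genes 4.38% were called, and this count is close to that share.

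**Figure D4:**
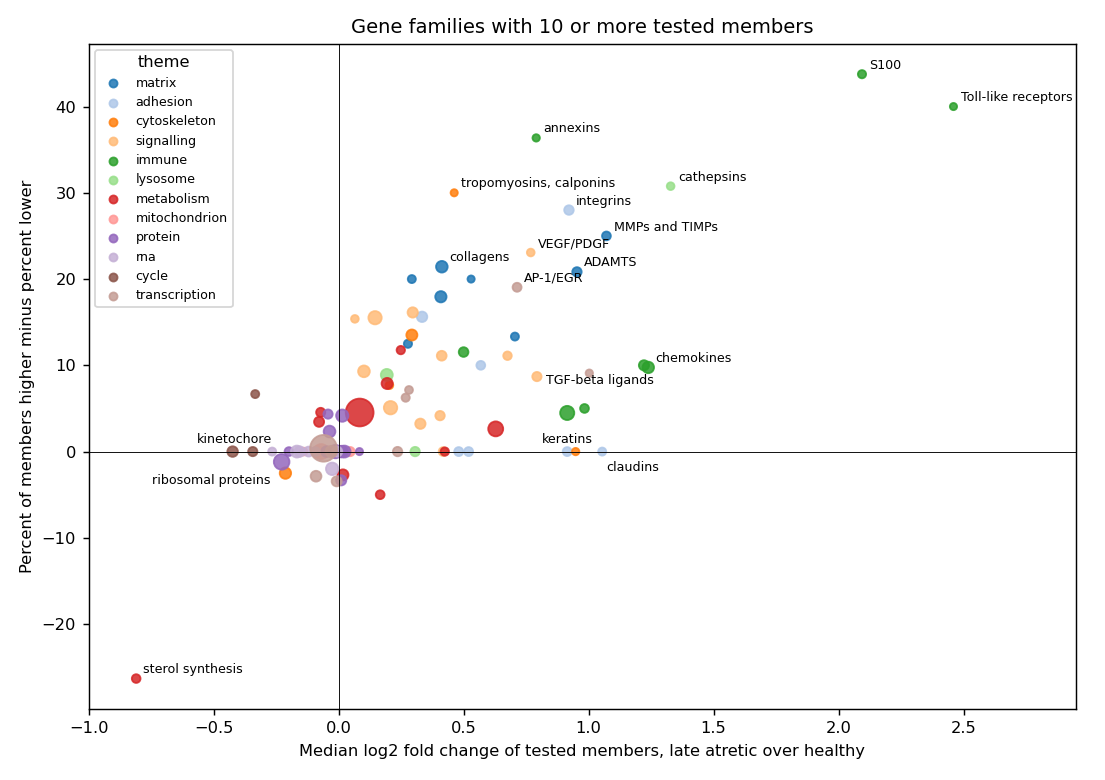
Percent of tested members called higher minus percent called lower, against the median log2 fold change (late atretic over healthy), for the 91 families with 10 or more tested members; area grows with the number of members and colour gives the theme. The 10 families with over 20% of members higher lie to the upper right, other families of the same themes such as claudins and keratins lie on the zero line, and the sterol synthesis enzymes stand alone at the lower left with 5 of 19 members lower.

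Matrix families had the most calls. Of 186 tested members of the 9 matrix families, 38 (20.4%) were called higher and 0 lower, against 3.98% and 0.397% of all tested genes. Their median log2 fold change was 0.51, against 0.03 over all genes. The fibrillar and type VI collagens led: COL3A1 had 5355 in late atretic and 265 in healthy follicles (log2 fold change 4.34 ± 0.38, adjusted p = 5.8e-27) and COL1A1 6494 in late atretic and 744 in healthy follicles (log2 fold change 3.12 ± 0.35, adjusted p = 8.3e-16) in the authors' deposited table. COL4A1 of basement membranes, the collagen with the highest count, was not called, at 12267 in late atretic and 8787 in healthy follicles (log2 fold change 0.48 ± 0.20, adjusted p = 0.21) in the authors' deposited table. Collagens held 0.524% of the late atretic and 0.260% of the healthy total. In laminins too, the cross-shaped proteins of basement membranes, the single most abundant member was not called. Called members were nonetheless more abundant than uncalled ones in both families, with a median level of 1038 for called and 20.9 for other collagens, and of 2233 for called and 52.5 for other laminins. LAMB1 had 6176 in late atretic and 1651 in healthy follicles (log2 fold change 1.90 ± 0.38, adjusted p = 7e-05), while LAMA1, the most abundant laminin, had 29039 in late atretic and 25796 in healthy follicles (log2 fold change 0.17 ± 0.36, adjusted p = 0.98) in the authors' deposited table. Matricellular and microfibril proteins called higher were 7 of 39, led by FN1, by TNC (tenascin C, 377 in late atretic and 13.7 in healthy follicles) and by FBN1 (fibrillin 1, 6463 in late atretic and 1215 in healthy follicles) in the authors' deposited table. Lysyl oxidases, which crosslink collagen, had 3 called members, of which LOXL1 had 242 in late atretic and 7.38 in healthy follicles (log2 fold change 5.03 ± 0.66, adjusted p = 1.5e-11) in the authors' deposited table.

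Several proteases that cut matrix rose as well. MMP2, a gelatinase, had 494 in late atretic and 46.5 in healthy follicles (log2 fold change 3.41 ± 0.46, adjusted p = 6.5e-11) in the authors' deposited table, and MMP19 686 in late atretic and 38.2 in healthy follicles (log2 fold change 4.16 ± 0.73, adjusted p = 2.2e-06). Metalloproteases with their inhibitors held 0.218% of the late atretic and 0.0943% of the healthy total. ADAMTS2, which trims procollagen, had 697 in late atretic and 39.3 in healthy follicles (log2 fold change 4.15 ± 0.48, adjusted p = 3.8e-15) in the authors' deposited table. Among small leucine-rich proteoglycans, FMOD and BGN (fibromodulin and biglycan) were called, with log2 fold changes of 3.55 ± 0.36 and 2.83 ± 0.58 in the authors' deposited table, and ASPN, the most abundant, was not (0.70 ± 1.30, adjusted p = 0.98).

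Of 13 stromal and fibroblast markers, 5 (38.5%, against 3.98% of all tested genes) were called higher: COL3A1, COL1A1, COL1A2, PDGFRB and PDGFRA. All 5 are also members of the families described here, so they are the same measurements, and the other 8 were not called. The 13 summed to 22254 in late atretic and 3437 in healthy follicles. None of the 13 was at 0 in either group, and FAP, a marker of activated fibroblasts, had 3.25 in late atretic and 3.37 in healthy follicles in the authors' deposited table. Smooth muscle and pericyte markers summed to 11391 in late atretic and 16606 in healthy follicles, with 2 of 10 called higher. Endothelial markers summed to 1883 in late atretic and 2019 in healthy follicles, with 1 of 15 called (6.67%). Most of that sum was VWF, with 1174 in late atretic and 1722 in healthy follicles in the authors' deposited table. Of the 15 log2 fold changes, 13 were above 0, with a median of 1.04. Theca markers summed to 4139 in late atretic and 4832 in healthy follicles, with 0 of 7 called and 1 at an unadjusted p below 0.05. That 1 was STAR, with 1286 in late atretic and 56.5 in healthy follicles. Of the 7 log2 fold changes, 3 were above 0 and 4 below. Of 9 listed theca markers 7 were found, without CYP17A1 and CYP11A1. The part of stromal RNA in the matrix result was not tested.

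Adhesion families had 14 of 172 members (8.14%) higher and 0 lower, against 3.98% and 0.397% of all tested genes. Integrins, the receptors that tie cells to matrix, had a log2 fold change above 0 in 24 of 25 members. ITGA7 had 239 in late atretic and 28.6 in healthy follicles (log2 fold change 3.05 ± 0.68, adjusted p = 0.00057) and the leukocyte subunit ITGB2 439.8 in late atretic and 60.6 in healthy follicles (log2 fold change 2.86 ± 0.76, adjusted p = 0.0074) in the authors' deposited table. ITGB5, by far the most abundant integrin, was the exception at 34175 in late atretic and 39364 in healthy follicles (log2 fold change -0.20 ± 0.60, adjusted p = 0.98) in the authors' deposited table. PLXND1, a semaphorin receptor, had 968 in late atretic and 62.8 in healthy follicles (log2 fold change 3.94 ± 0.36, adjusted p = 2.3e-24) in the authors' deposited table. Connexins and claudins, which form gap and tight junctions, had 0 called of 17 and 0 of 15, with 2 and 1 higher at an unadjusted p below 0.05. GJA1, connexin 43 of granulosa gap junctions, had 14377 in late atretic and 16495 in healthy follicles (log2 fold change -0.20 ± 0.48, adjusted p = 0.98) in the authors' deposited table. Keratins had 0 called of 21 (1 higher at an unadjusted p below 0.05), yet their share was 0.0591% of the late atretic and 0.0171% of the healthy total. Most of this was KRT8, with 6336 in late atretic and 1752 in healthy follicles (log2 fold change 1.85 ± 0.76, adjusted p = 0.19) in the authors' deposited table, a fold change whose implied error was too wide to pass.

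Cytoskeletal families had 9 of 142 members (6.34%) higher and 1 (0.704%) lower, against 3.98% and 0.397% of all tested genes. TAGLN and CNN1, actin-binding proteins of smooth muscle, had 1231 in late atretic and 176 in healthy follicles (log2 fold change 2.80 ± 0.37, adjusted p = 2.3e-11) and 425 in late atretic and 29.1 in healthy follicles (log2 fold change 3.86 ± 0.58, adjusted p = 1.2e-08) in the authors' deposited table. The class I myosin MYO1C had 2493 in late atretic and 852 in healthy follicles (log2 fold change 1.55 ± 0.25, adjusted p = 1.6e-07) and MYH9, the heavy chain of non-muscle myosin, 8657 in late atretic and 4223 in healthy follicles (log2 fold change 1.04 ± 0.26, adjusted p = 0.0028) in the authors' deposited table. TPM1, the most abundant tropomyosin, had 21603 in late atretic and 30600.5 in healthy follicles (log2 fold change -0.50 ± 0.38, adjusted p = 0.75) in the authors' deposited table. Tubulins had 0 called of 11, with 2 higher before adjustment at a p below 0.05, and the most abundant, TUBB, had 18710.3 in late atretic and 19034 in healthy follicles (log2 fold change -0.02 ± 0.29, adjusted p = 1) in the authors' deposited table. The only kinesin called was lower, KIF14, a motor of cytokinesis, with 546 in late atretic and 1069.8 in healthy follicles (log2 fold change -0.97 ± 0.31, adjusted p = 0.044) in the authors' deposited table, a call lost at equal totals.

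Immune families came second in share of calls after matrix. Their 223 members had 30 (13.5%) higher and 0 lower, against 3.98% and 0.397% of all tested genes. This theme was drawn to include S100 proteins (7 of 16 higher) and annexins (4 of 11 higher), and its rank depends on that choice. The median log2 fold change was 1.06 over these 223 and 0.60 over the 60 with a mean of at least 100, while tested genes of any kind with a mean below 1 had a median of 0.91. S100 proteins, small calcium-binding proteins, held 0.0633% of the late atretic and 0.0164% of the healthy total. S100A10, the partner of annexin A2, had 1899.8 in late atretic and 260.0 in healthy follicles (log2 fold change 2.87 ± 0.48, adjusted p = 4.9e-07) in the authors' deposited table. S100A11 had 3610.1 in late atretic and 1295 in healthy follicles (log2 fold change 1.48 ± 0.38, adjusted p = 0.0049) and S100A4 671 in late atretic and 82.5 in healthy follicles (log2 fold change 3.02 ± 0.55, adjusted p = 7.7e-06) in the authors' deposited table. All 11 annexins, which bind membranes in the presence of calcium, had a log2 fold change above 0, and the scaling to equal totals moves them further up. ANXA2 had 7422 in late atretic and 3152 in healthy follicles (log2 fold change 1.24 ± 0.27, adjusted p = 0.00044) and ANXA1, known for damping inflammation, 2458 in late atretic and 630.2 in healthy follicles (log2 fold change 1.96 ± 0.35, adjusted p = 4.4e-06) in the authors' deposited table. Innate receptors were called at low levels. TLR2 had 115 in late atretic and 11.4 in healthy follicles (log2 fold change 3.32 ± 0.85, adjusted p = 0.0045) and TLR4 113 in late atretic and 11.2 in healthy follicles (log2 fold change 3.33 ± 0.87, adjusted p = 0.0059) in the authors' deposited table, whereas TLR6, the most abundant Toll-like receptor, had 413 in late atretic and 685 in healthy follicles (log2 fold change -0.73 ± 0.39, adjusted p = 0.46). CXCL12, a chemokine of stromal cells, had 640.1 in late atretic and 33.2 in healthy follicles (log2 fold change 4.26 ± 0.57, adjusted p = 3.5e-11) in the authors' deposited table, while CCL25, with the most counts of the chemokines over both groups together, had 609 in late atretic and 1679 in healthy follicles (log2 fold change -1.46 ± 0.67, adjusted p = 0.3). C5AR1, the receptor for the complement fragment C5a, had 205 in late atretic and 7.23 in healthy follicles (log2 fold change 4.82 ± 1.01, adjusted p = 0.00018) and CD74, the chaperone of MHC class II, 1281 in late atretic and 107 in healthy follicles (log2 fold change 3.59 ± 0.79, adjusted p = 0.00048) in the authors' deposited table.

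Lysosomal families had 8 of 82 members (9.76%) higher and 0 lower, against 3.98% and 0.397% of all tested genes. Cathepsins, the proteases of lysosomes, held 0.342% of the late atretic and 0.177% of the healthy total. CTSK, which degrades collagen, had 1212 in late atretic and 234 in healthy follicles (log2 fold change 2.37 ± 0.53, adjusted p = 0.0006) in the authors' deposited table. CTSD, the most abundant cathepsin, had 18917 in late atretic and 13958 in healthy follicles (log2 fold change 0.44 ± 0.31, adjusted p = 0.73) in the authors' deposited table. NPC2, which carries cholesterol out of lysosomes, had 907 in late atretic and 236 in healthy follicles (log2 fold change 1.94 ± 0.48, adjusted p = 0.0027) in the authors' deposited table. Subunits of the proton pump that acidifies lysosomes had 0 called of 24, against 4.38% of all tested genes, with 1 higher at an unadjusted p below 0.05.

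Most macrophage markers rose. Of 18 listed markers 16 were found and 15 tested. Of the 15, 9 (60%) were called higher, against 3.98% of all tested genes. At an unadjusted p below 0.05, 14 were higher, against 9.2% of all tested genes. The list had a median log2 fold change of 3.96, and their summed level was 8852 in late atretic and 857 in healthy follicles, which is 0.0674% of the late atretic and 0.00609% of the healthy total. CD68, a lysosomal protein of macrophages, had 1833 in late atretic and 117 in healthy follicles (log2 fold change 3.96 ± 1.14, adjusted p = 0.017) in the authors' deposited table. LAPTM5 had 1394 in late atretic and 84.3 in healthy follicles (log2 fold change 4.05 ± 0.84, adjusted p = 0.00014) and CSF1R, the receptor for macrophage colony-stimulating factor, 933 in late atretic and 43.6 in healthy follicles (log2 fold change 4.42 ± 1.34, adjusted p = 0.028) in the authors' deposited table. None of the 16 was at 0 in either group. Of the 16 markers, 5 are also members of the families above. Neutrophil markers summed to 775 in late atretic and 506 in healthy follicles, with 3 of 7 called (42.9%). LTF alone had 384 in late atretic and 453 in healthy follicles in the authors' deposited table. The log2 fold changes of the other 6 tested neutrophil markers were above 0, and MMP9, TREM1 and S100A9 were the called ones. CSF3R (9.99 in late atretic and 6.85 in healthy follicles) and CXCR2 (2.91 and 2.70) were low. Their log2 fold changes of 0.54 ± 0.90 and 0.11 ± 1.37 lay within their errors, and MMP8 was at 0 in both groups. Markers of T, B and NK cells summed to 521 in late atretic and 134 in healthy follicles, with 1 of 14 called (7.14%). Ovarian surface epithelium markers, KRT8 among them, summed to 8046 in late atretic and 2369.7 in healthy follicles, with 1 of 7 called (CDH1), and 5 of its 9 genes were at 0 in healthy and 2 in late atretic follicles. Oocyte markers summed to 38.3 in late atretic and 24.8 in healthy follicles, with 0 of 8 called, erythroid ones to 14.8 in late atretic and 14.9 in healthy follicles, with 0 of 4 called, and 0 of both had an unadjusted p below 0.05. Luteal markers summed to 1689 in late atretic and 562 in healthy follicles, with 0 of 4 called and 2 at an unadjusted p below 0.05. Most of the late atretic sum was STAR, with 1286 in late atretic and 56.5 in healthy follicles. LHCGR, with most of the healthy sum, had 317 in late atretic and 470 in healthy follicles. Of 6 listed luteal markers 4 were found, without CYP11A1 and HSD3B1. The part of RNA from leukocytes or other cells in the immune and lysosomal results was not tested.

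Signalling families had 37 of 368 members (10.1%) higher and 1 (0.272%) lower, against 3.98% and 0.397% of all tested genes. Of 23 tested TGF-beta ligands 2 were called higher. Their median log2 fold change was 0.79, but it was -0.23 over the 7 with a mean of at least 100. Of the called ligands, BMP6 had 383 in late atretic and 28.1 in healthy follicles (log2 fold change 3.76 ± 0.65, adjusted p = 1.5e-06) and BMP4 391 in late atretic and 109 in healthy follicles (log2 fold change 1.84 ± 0.46, adjusted p = 0.0035) in the authors' deposited table. The family held 2.10% of the late atretic and 4.33% of the healthy total, since 99.3% of its late atretic and 99.8% of its healthy counts came from the 3 inhibin subunits. The other ligands together summed to 1967 in late atretic and 1140 in healthy follicles. Both receptors for platelet-derived growth factor were called. PDGFRB had 1194 in late atretic and 88.2 in healthy follicles (log2 fold change 3.76 ± 0.65, adjusted p = 1.2e-06) and PDGFRA 1567 in late atretic and 350.1 in healthy follicles (log2 fold change 2.16 ± 0.64, adjusted p = 0.024) in the authors' deposited table, while VEGFA, the ligand with the most counts, had 1817 in late atretic and 3201 in healthy follicles (log2 fold change -0.82 ± 0.47, adjusted p = 0.53). IGFBP5, which binds insulin-like growth factors, had 5895 in late atretic and 716 in healthy follicles (log2 fold change 3.04 ± 0.67, adjusted p = 0.00052) in the authors' deposited table. Members of the Wnt family went both ways, with SFRP2, a secreted Wnt antagonist, at 517 in late atretic and 5.75 in healthy follicles (log2 fold change 6.54 ± 0.62, adjusted p = 1.6e-22) and the receptor FZD8 at 312 in late atretic and 1000.2 in healthy follicles (log2 fold change -1.68 ± 0.52, adjusted p = 0.033) in the authors' deposited table. SOCS3, a feedback inhibitor of cytokine receptors, had 671 in late atretic and 246 in healthy follicles (log2 fold change 1.44 ± 0.45, adjusted p = 0.034) and STAT6 961 in late atretic and 537 in healthy follicles (log2 fold change 0.84 ± 0.22, adjusted p = 0.0054) in the authors' deposited table.

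Sterol synthesis was the 1 family in which several members fell. All 19 enzymes had a log2 fold change below 0, with a median of -0.81. Of these 5 were called lower, against 0.397% of all tested genes, and 12 had an unadjusted p below 0.05. HMGCS1, which makes HMG-CoA, had 1934 in late atretic and 4945 in healthy follicles (log2 fold change -1.35 ± 0.37, adjusted p = 0.011) in the authors' deposited table. FDFT1, the squalene synthase, had 1776 in late atretic and 3654 in healthy follicles (log2 fold change -1.04 ± 0.26, adjusted p = 0.0037) in the authors' deposited table. IDI1 and ACAT2, of the early steps, had 801 in late atretic and 1805 in healthy follicles (log2 fold change -1.17 ± 0.38, adjusted p = 0.047) and 1062 in late atretic and 1801 in healthy follicles (log2 fold change -0.76 ± 0.24, adjusted p = 0.034) in the authors' deposited table. Scaled to equal totals, 3 of the 5 calls were left, without IDI1 and ACAT2, and centred on the median of all genes there were 6. The family held 0.200% of the late atretic and 0.316% of the healthy total.

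Among the steroid enzymes found, there was no such run. With STAR they were 22 genes, 1 called higher and 0 lower, with 9 above and 13 below 0. CYP17A1, CYP11A1 and HSD3B1 were not found by symbol and are not in this count. HSD17B11 had 394 in late atretic and 166 in healthy follicles (log2 fold change 1.24 ± 0.37, adjusted p = 0.024) in the authors' deposited table. CYP19A1 had the most counts and a very wide error, at -0.56 ± 1.47, adjusted p = 0.98 in the authors' deposited table. STAR, which brings cholesterol into mitochondria, had 1286 in late atretic and 56.5 in healthy follicles (log2 fold change 4.51 ± 1.51, adjusted p = 0.061), not called here but called at equal totals, in the authors' deposited table. Together they held 0.252% of the late atretic and 0.421% of the healthy total. Among ABC transporters, ABCA1, which moves cholesterol out of cells, had 2006 in late atretic and 134 in healthy follicles (log2 fold change 3.90 ± 0.57, adjusted p = 2.8e-09) and ABCG1 75.3 in late atretic and 16.6 in healthy follicles (log2 fold change 2.17 ± 0.61, adjusted p = 0.013) in the authors' deposited table. Of 287 solute carriers 13 (4.53%) were called higher and 0 lower, close to the 3.98% of all genes. SLC40A1, the iron exporter ferroportin, had 1050.0 in late atretic and 406 in healthy follicles (log2 fold change 1.37 ± 0.29, adjusted p = 0.00022) in the authors' deposited table. CPT1A, which admits fatty acids to mitochondria, had 809 in late atretic and 193 in healthy follicles (log2 fold change 2.07 ± 0.53, adjusted p = 0.0044) by the authors' deposited table. Among 20 glycolytic enzymes only PFKM, the muscle phosphofructokinase, was called, at 544 in late atretic and 1380.3 in healthy follicles (log2 fold change -1.34 ± 0.43, adjusted p = 0.042) in the authors' deposited table, a call lost at equal totals, while GAPDH had 36927 in late atretic and 32627 in healthy follicles (log2 fold change 0.18 ± 0.25, adjusted p = 0.97).

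The machinery of mitochondria, translation and splicing was largely without calls. Over all tested genes 3.98% were called higher and 0.397% lower. At an unadjusted p below 0.05 these shares were 9.2% and 2.96%. Mitochondrial families had 0 called of 173, with 0 higher and 3 lower at an unadjusted p below 0.05 and a median of -0.07. Nuclear COX and UQCR genes were not matched and are in none of these families. The 13 mitochondrially encoded genes held 6.20% of the late atretic and 6.46% of the healthy total, led by COX1 at 396799 in late atretic and 468177 in healthy follicles (log2 fold change -0.24 ± 0.34, adjusted p = 0.97) in the authors' deposited table. Cytosolic ribosomal proteins had 77 of 84 members below 0, 64 of 84 when scaled to equal totals, and 1 called. RPLP0, the most abundant, had 39886 in late atretic and 46004 in healthy follicles (log2 fold change -0.21 ± 0.22, adjusted p = 0.92) in the authors' deposited table. Ribosomal protein genes have many near-identical pseudogenes, so their counts are uncertain. As a family they held 4.83% of the late atretic and 5.38% of the healthy total. Across the RNA families 0 of 223 genes were called higher, 2 (0.897%) lower, and 158 had a log2 fold change below 0. DDX11, a DNA helicase of the DEAH box group, had 168 in late atretic and 462 in healthy follicles (log2 fold change -1.46 ± 0.35, adjusted p = 0.0018) in the authors' deposited table. Proteasome subunits had 1 called of 43, PSMB8 of the immunoproteasome, with 369.7 in late atretic and 189.7 in healthy follicles (log2 fold change 0.96 ± 0.30, adjusted p = 0.035) in the authors' deposited table. Translation initiation factors, ubiquitin-specific proteases, F-box proteins and coat proteins of secretion had 0 called of 42, 45, 59 and 34, with 2, 3, 6 and 2 at an unadjusted p below 0.05.

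Genes of the cell cycle families had mostly negative fold changes, 60 of 71. Called lower were 0 of the 71, but only 0.397% of all tested genes were, so this count says little. At an unadjusted p below 0.05, 12 of the 71 were lower, against 2.96% of all tested genes. Centromere and kinetochore proteins had 30 of 33 members below 0 with a median of -0.42, and 29 of 33 when scaled to equal totals. MCM and origin proteins, which license DNA replication, had 20 of 23 below 0 and a median of -0.34. Of both, 0 were called, against 4.38% of all tested genes. Without adjustment, 7 and 3 members passed a p of 0.05 downwards and 0 upwards. MCM2 had 1675 in late atretic and 3139 in healthy follicles (log2 fold change -0.91 ± 0.39, adjusted p = 0.23) and CENPF 2722 in late atretic and 3309 in healthy follicles (log2 fold change -0.28 ± 0.36, adjusted p = 0.96) in the authors' deposited table. CCND2, the cyclin D that follicle-stimulating hormone induces in granulosa cells, had 4034 in late atretic and 9119 in healthy follicles (log2 fold change -1.18 ± 0.57, adjusted p = 0.35) in the authors' deposited table, and CCND3 was called the other way at 412 in late atretic and 197 in healthy follicles (log2 fold change 1.06 ± 0.26, adjusted p = 0.0021).

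Transcription factor families had few calls, 9 of 455 members (1.98%) higher and 3 (0.659%) lower, against 3.98% and 0.397% of all tested genes. AP-1, MAF and EGR factors had the most of these, with 4 of 21 higher and 18 above 0. MAF had 445 in late atretic and 129 in healthy follicles (log2 fold change 1.78 ± 0.29, adjusted p = 2.6e-07) in the authors' deposited table. EGR1 had 6362 in late atretic and 5471 in healthy follicles (log2 fold change 0.22 ± 0.57, adjusted p = 0.98) in the authors' deposited table. SOX9 had 223 in late atretic and 39.2 in healthy follicles (log2 fold change 2.51 ± 0.71, adjusted p = 0.014) and HES1, a target of Notch, 65.4 in late atretic and 20.7 in healthy follicles (log2 fold change 1.65 ± 0.44, adjusted p = 0.008) by the authors' deposited table. FOXM1, a factor of dividing cells, had 224 in late atretic and 412 in healthy follicles (log2 fold change -0.88 ± 0.26, adjusted p = 0.019) in the authors' deposited table, while FOXO1, the most abundant forkhead factor, had 12613 in late atretic and 14983 in healthy follicles (log2 fold change -0.25 ± 0.52, adjusted p = 0.98). Of 35 nuclear receptors ESR2 was called lower, and NR5A2, the most abundant, had 7491 in late atretic and 11357 in healthy follicles (log2 fold change -0.60 ± 0.30, adjusted p = 0.4) in the authors' deposited table. HOX genes had 0 called of 24, with 2 lower at an unadjusted p below 0.05, and C2H2 zinc fingers 2 higher and 1 lower of 264.

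**Figure D5:**
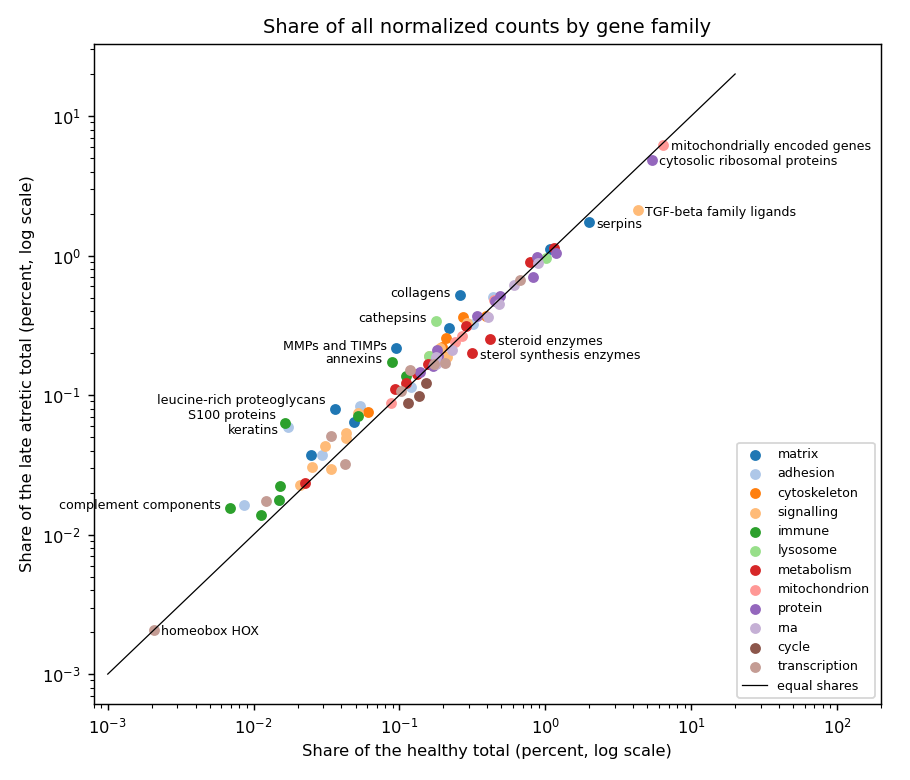
Summed share of all normalized counts in late atretic (vertical) against healthy follicles (horizontal), both in percent on log scales, for the 91 families with 10 or more tested members; the line marks equal shares. Most families lie on the line; keratins and S100 proteins lie furthest above it and the TGF-beta family ligands furthest below.

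Summed by family, the shares of the total showed where reads were gained and lost. Of the 91 families 60 held a larger share in late atretic follicles and 31 a smaller one. The share was at least 2 times as large in 6: S100 proteins (ratio 3.87), keratins (3.44), metalloproteases with their inhibitors (2.31), complement components (2.28), small leucine-rich proteoglycans (2.19) and collagens (2.01). It was 0.5 times as large or less in 1, the TGF-beta ligands (0.486). Steroid enzymes with STAR (0.598) and sterol synthesis enzymes (0.633) followed. The genes in no family held 61.5% of the late atretic and 59.4% of the healthy total, with 518 of 14218 called higher (3.64%) and 52 lower (0.366%).

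Grouping genes by the root of their symbol alone covered 5655 genes in 261 roots of 8 or more tested members. Of these roots 143 had 0 calls, 108 had a higher and 23 a lower member. Over 20% of members were higher in 13 roots, and the ones that the families above leave out were DOCK (3 of 11), SMAD (2 of 8) and GALNT (3 of 14). A lower share above 10% was seen in 1 root, the carbonic anhydrases CA, with 2 of 14 lower and 2 higher. The 2 lower ones, picked here after their values were seen, were CA5B at 136 in late atretic and 416 in healthy follicles (log2 fold change -1.62 ± 0.45, adjusted p = 0.013) and CA9 at 41.2 in late atretic and 132 in healthy follicles (log2 fold change -1.68 ± 0.51, adjusted p = 0.029) in the authors' deposited table. Of the roots with most members, SLC was near the 3.98% of all genes with 13 of 309 higher (4.21%). The others were below it, at 4 of 219 (1.83%) for TMEM, 2 of 264 (0.758%) for ZNF and 1 of 188 (0.532%) for FAM. Genes known only by a LOC number were called in 2.14% of 2148 tested, below the 4.38% of all genes.

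Genes listed at 0 in 1 group were more often at 0 in healthy than in late atretic follicles. At 0 in healthy and above 0 in late atretic follicles were 974 genes, 17 of them at 10 or more, and the reverse held for 446 genes, 1 of them at 10 or more. The most abundant of the first kind was CARTPT, a neuropeptide precursor, with 122.5 in late atretic and 0 in healthy follicles and no p-value in the authors' deposited table. GCSAML had 34.6 in late atretic and 0 in healthy follicles and was called (adjusted p = 1.9e-05) in the authors' deposited table. SYT4 and RASSF10, at 0 in healthy follicles, had 38.3 and 32.1 in late atretic follicles and no p-value in the authors' deposited table. Of those at 0 in late atretic follicles, HOXD11 had 0 in late atretic and 6.53 in healthy follicles and was not called (adjusted p = 0.41) in the authors' deposited table. A 0 in these tables is a mean over 3 samples and no proof of absence.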

How the data were processed

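RNA was extracted with Trizol and libraries followed Illumina's standard protocols, per the labels' protocols. The submitters' processing notes list Bowtie 0.12.2 and, without saying for what, mm8 and mm9, which are builds of the mouse genome. The counter, annotation and test tool were not given in the sources used here. The deposited read count columns hold a scaled signal (normalized counts averaged by the authors over the 3 samples of each group). Library depth is therefore unknown and no spread between samples could be computed. The log2 fold change and the p-value, raw and adjusted, are the authors', per the file headers. The fold change lay within 0.116 of the log2 ratio of both means at means above 50, and Benjamini-Hochberg adjustment gave the deposited adjusted p to within 7.72e-05. 0 columns of per-sample values were left out. The implied standard error is the absolute log2 fold change over the z of a two-sided normal test, an assumption. The late and healthy columns of the other tables differ in scale by 1.05 and 1.03. Families come from symbol patterns. A RefSeq gene table of the assembly NDDB_SH_1 held 15413 of 16251 symbols and 3651 of 4550 LOC numbers, and gave a symbol to 183 of the LOC genes. Reads shared by paralogs leave their counts uncertain. Members, families and markers were chosen with earlier results of these data known. Named were the 15 largest gains and losses, the 3 smallest adjusted p in each direction per decade of level from 10, the 10 largest called fold changes each way above 1000, the 5 most abundant genes at 0 in either group, and per family the 3 leading calls each way and the most abundant member, with the most abundant called member of each direction where both occur. Some genes this rule names are not reported here. The calculations used Python 3.11.15, pandas 2.3.3, NumPy 2.4.6, SciPy 1.17.1 and matplotlib 3.10.9, and the counting of calls was tested on simulated data.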

Additional observations from a re-analysis of the deposited data

Results flagged for a closer look

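Of the 761 genes called against healthy follicles, 2 also differed between late and early atretic follicles in the authors' deposited late against early table, which tests that difference itself and shares the late atretic samples. PHGDH, the first enzyme of serine synthesis, had a log2 fold change of -0.96 ± 0.24 for late over early (adjusted p = 0.048) in the authors' deposited table, and its means were 399 in late atretic and 735 in healthy follicles (log2 fold change -0.88 ± 0.28, adjusted p = 0.042). SRF, a transcription factor of actin genes, had -0.80 ± 0.18 for late over early (adjusted p = 0.020) in the authors' deposited table, and its means were 607 in late atretic and 1155 in healthy follicles (log2 fold change -0.93 ± 0.28, adjusted p = 0.03). Both were named for this difference after their values were seen, and both lost their call against healthy follicles at equal totals (log2 fold changes of -0.78 for PHGDH and -0.83 for SRF).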

How the results depend on the processing

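No paired analysis was possible because the tables hold 1 mean per group, and for the same reason no replicate could be left out. The calls of 692 genes higher and 69 lower became 426 and 21 at an adjusted p below 0.01. Over genes at or above the median level there were 266 higher and 52 lower, and after scaling to equal totals 817 and 43. Also tried were a log2 fold change of at least 1, repeated rows kept, and median centring with a normal or a t reference. These gave 653 to 715 higher and 47 to 80 lower. The t reference, with 4 degrees of freedom, was also used to work the error back from the deposited p. It is therefore no t test of the samples, and apart from the centring it returns the deposited p. The share of calls that were higher was 83.6% to 95.3% over the settings tried. The 10 most abundant genes held 7.35% in late atretic and 10.2% in healthy follicles without mitochondrially encoded genes, and 10.8% and 13.97% without cytosolic ribosomal protein genes. The percent called in the highest stratum was 3.14 over 5 strata of equal size and 4.57 by the mean of the higher group, against 2.07. Families with over 20% of members higher numbered 4 at an adjusted p below 0.01 and 16 over genes at or above the median level, against 10. Of 91 family medians 18 changed sign at equal totals, the largest of them 0.093 from 0, and 6 on median centring. Of 1986 fold changes of 497 genes under other settings, 0 of those called changed sign. This count is no test of robustness. Called log2 fold changes were at least 0.597 in size upwards and 0.643 downwards, more than centring or scaling to equal totals shifts them. The other settings, 1 added to both means and a sum through early atretic follicles, rework the same group means. Of the genes named in the text, ACAT2, AKR1B1, HMGB2, IDI1, KIF14, LRCH4, PFKM, PHGDH, POLD1, SRF, UBE2S and WFDC1 lost their call at equal totals. STAR gained a call at equal totals, and HSD17B1 and STRA6 gained one on centring. Among genes not named elsewhere in the text, RARS2 lost its call at equal totals, and ABCB4 and ISG20 lost theirs on centring. These changes of call follow from the shift in scale by construction. Low counts limit calls below a mean of 10, where 9 of 4339 tested genes were called.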

Other observations

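Further genes among the 69 called lower were named here after their values were seen, and they form no list with a test. UBE2S, a ubiquitin-conjugating enzyme of mitotic exit, had 1046 in late atretic and 2355 in healthy follicles (log2 fold change -1.17 ± 0.37, adjusted p = 0.037) in the authors' deposited table. HMGB2, a chromatin protein abundant in proliferating cells, had 1872 in late atretic and 3335 in healthy follicles (log2 fold change -0.83 ± 0.26, adjusted p = 0.036) and TONSL, which repairs stalled replication forks, 339 in late atretic and 671 in healthy follicles (log2 fold change -0.99 ± 0.27, adjusted p = 0.0093) in the authors' deposited table. POLD1, the catalytic subunit of DNA polymerase delta, had 707 in late atretic and 1205 in healthy follicles (log2 fold change -0.77 ± 0.24, adjusted p = 0.032) in the authors' deposited table. ACTG2, the smooth muscle gamma actin, had 701 in late atretic and 1780.2 in healthy follicles (log2 fold change -1.34 ± 0.38, adjusted p = 0.012) in the authors' deposited table, while in the marker list of smooth muscle and pericytes 2 of 10 were called higher and 0 lower. ROR2, a receptor tyrosine kinase that binds Wnt ligands, had 4939 in late atretic and 10028 in healthy follicles (log2 fold change -1.02 ± 0.29, adjusted p = 0.014) and AKR1B1, an aldose reductase, 3800.0 in late atretic and 7508 in healthy follicles (log2 fold change -0.98 ± 0.32, adjusted p = 0.044) in the authors' deposited table. Of these, UBE2S, HMGB2, POLD1 and AKR1B1 lost their call at equal totals.

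The 76 genes with a fold change and no p-value leaned the same way as the called genes. In 67 late atretic follicles had the higher mean and in 9 the lower, and 64 had a log2 fold change of 1 or more against 4 with one of -1 or less. SIGLEC1, the macrophage receptor sialoadhesin, had 569 in late atretic and 12.4 in healthy follicles in the authors' deposited table. VNN1, a pantetheinase, had 523 in late atretic and 5.01 in healthy follicles and PLTP, which transfers phospholipids, 473 in late atretic and 21.6 in healthy follicles in the authors' deposited table. TNFAIP6, a hyaluronan-binding protein, had 272 in late atretic and 5.74 in healthy follicles and SPON1 1638 in late atretic and 176 in healthy follicles in the authors' deposited table. NOX5, an NADPH oxidase, was on the other side with 115 in late atretic and 395 in healthy follicles in the authors' deposited table. These differences have no test.

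Of the 19 genes called between late and early atretic follicles, the 2 with the smallest adjusted p were not called against healthy follicles. LTF, lactoferrin, had 384 in late atretic and 453 in healthy follicles in the authors' deposited table (log2 fold change -0.24 ± 0.42, adjusted p = 0.98), and for late over early -1.55 ± 0.28 (adjusted p = 0.00023). SYNPO2, an actin-binding protein, had 277 in late atretic and 407 in healthy follicles in the authors' deposited table (log2 fold change -0.56 ± 0.81, adjusted p = 0.98), and for late over early -1.22 ± 0.22 (adjusted p = 0.00023).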
